A study of Mus musculus with 16 samples.

Results

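The chromatin of cells at day 10 of chemical reprogramming was compared with that of cells at day 8, as the regions that were kept, gained or lost between the peak lists of the 2 stages. Peaks that shared at least 1 bp on chromosomes 1 to 19, X or Y were merged, which gave 55708 regions, of 165616 regions in the lists of all 8 stages of the series. The day 10 cells were mouse embryonic fibroblasts (MEFs) labelled 129XOG2 E13.5 embryo that had spent 10 days in reprogramming medium. The day 8 cells were MEFs of the same label that had spent 8 days in it. At both stages the MEFs were of passages 1 to 3, and the labels call the cells reprogramming intermediates. The medium was renewed every 2 days, but daily over days 4 to 8, so the day 10 cells had also passed from daily renewal back to the 2-day interval. The composition of the reprogramming medium was not given in the sources used here. OG2 cells carry a GFP transgene under regulatory sequence of Pou5f1. Open chromatin was mapped with ATAC-seq, which uses a transposase, Tn5, to cut and tag accessible DNA in nuclei (100000 cells per library). GEO lists 2 samples at each stage, but 1 peak list was used for each, and the sources used here do not say how the samples were combined. With no spread between replicates to set against them, differences were not tested, and every interval below covers counting error only.

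Gene ends with CpG-rich sequence are open in most cell types, whereas open sites inside and between genes are often enhancers that belong to a cell state. During reprogramming, sites of the fibroblast state close and sites of the pluripotent state open, and with chemicals the cells are known to pass through a stage with features of extraembryonic endoderm, marked by Gata4, Gata6, Sox17 and Sall4. In bulk cells, a region found open in fewer cells and a region less open in each cell cannot be told apart.

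Shown first are promoter windows (250 bases before to 50 after the start site, 5′ to 3′ on the gene's strand, RefSeq, GRCm38.p6) from genes that stood on either side of the comparison. CG pairs, the targets of DNA methylation, are in capitals. Utf1 encodes a chromatin protein of pluripotent cells, Aldh1a2 a retinaldehyde dehydrogenase that makes retinoic acid, and Cldn6 a tight junction claudin of early embryonic epithelium. All 3 of these promoters were covered by a peak at day 10 and by none at day 8. Krt7, a keratin of simple epithelia, had its promoter covered at day 8 alone. Zfp42 (Rex1), a marker of naive pluripotency, was covered in both lists, and Nanog, a core pluripotency factor with 2 promoter windows in the table, of which the first is shown, in neither. The windows lay at chr7:139943606-139943905, chr9:71215539-71215838, chr17:23679115-23679414 and chr15:101412153-101412452 on the plus strand, at chr8:43306960-43307259 on the minus strand and at chr6:122707239-122707538 on the plus strand.
Utf1: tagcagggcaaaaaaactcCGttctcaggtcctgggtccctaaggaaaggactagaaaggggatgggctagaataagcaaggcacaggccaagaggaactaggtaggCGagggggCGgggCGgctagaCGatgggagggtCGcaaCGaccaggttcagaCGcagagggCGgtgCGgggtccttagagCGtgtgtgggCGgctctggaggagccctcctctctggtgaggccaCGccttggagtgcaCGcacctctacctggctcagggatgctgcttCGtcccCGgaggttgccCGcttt
Aldh1a2: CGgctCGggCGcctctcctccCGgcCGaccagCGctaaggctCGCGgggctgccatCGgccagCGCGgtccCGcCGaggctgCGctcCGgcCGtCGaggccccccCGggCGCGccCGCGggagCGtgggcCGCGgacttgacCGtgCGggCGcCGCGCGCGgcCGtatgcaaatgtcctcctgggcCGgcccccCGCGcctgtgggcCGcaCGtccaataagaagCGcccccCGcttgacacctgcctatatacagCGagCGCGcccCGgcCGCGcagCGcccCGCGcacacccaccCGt
Cldn6: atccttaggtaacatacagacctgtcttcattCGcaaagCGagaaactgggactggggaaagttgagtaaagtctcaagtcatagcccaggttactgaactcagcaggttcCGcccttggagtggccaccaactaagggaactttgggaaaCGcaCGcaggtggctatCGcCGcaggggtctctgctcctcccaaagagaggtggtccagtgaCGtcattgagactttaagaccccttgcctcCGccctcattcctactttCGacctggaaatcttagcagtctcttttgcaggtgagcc
Krt7: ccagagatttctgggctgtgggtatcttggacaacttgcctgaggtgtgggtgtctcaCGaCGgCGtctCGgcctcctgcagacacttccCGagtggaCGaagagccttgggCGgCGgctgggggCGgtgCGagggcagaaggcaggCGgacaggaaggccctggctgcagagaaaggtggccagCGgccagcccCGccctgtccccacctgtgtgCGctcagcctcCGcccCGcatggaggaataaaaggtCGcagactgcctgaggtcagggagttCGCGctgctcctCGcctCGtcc
Zfp42: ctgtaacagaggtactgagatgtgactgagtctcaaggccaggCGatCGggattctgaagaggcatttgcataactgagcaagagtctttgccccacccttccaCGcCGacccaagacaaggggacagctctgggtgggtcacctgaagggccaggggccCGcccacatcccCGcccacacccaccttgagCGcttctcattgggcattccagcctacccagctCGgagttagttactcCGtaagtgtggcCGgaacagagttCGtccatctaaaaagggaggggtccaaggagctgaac
Nanog: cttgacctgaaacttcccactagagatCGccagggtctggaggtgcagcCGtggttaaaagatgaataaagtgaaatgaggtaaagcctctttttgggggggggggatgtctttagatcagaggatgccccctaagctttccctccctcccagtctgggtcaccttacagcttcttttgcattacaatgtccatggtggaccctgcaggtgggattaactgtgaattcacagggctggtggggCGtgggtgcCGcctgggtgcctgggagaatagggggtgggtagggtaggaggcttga

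The windows differed in CG content: Aldh1a2 held 50 CG pairs, Krt7 21, Utf1 17, Zfp42 11, Cldn6 10 and Nanog 4. The Aldh1a2 window was also covered at day 2 and in the iPSC list, and the Utf1 window at days 2, 4 and 12 and in iPSC. The Zfp42 window was covered at day 12 and in iPSC but at none of days 0 to 6. The Cldn6 and Krt7 windows were covered in no other list, and the Nanog window in iPSC alone.

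A second group of sequences shows microRNAs whose hairpins, with 1 kb on either side, stood in different classes. The seed, bases 2 to 8 of the mature strand, is in capitals. miR-141 and miR-200c, which act against Zeb factors and hold cells epithelial, had hairpins covered at day 10 alone. miR-302b and miR-302d, of the cluster that pluripotent cells transcribe, and miR-290a were covered in both lists, whereas miR-295, of the same cluster as miR-290a, and miR-203, an epithelial microRNA, were covered at day 8 alone.
miR-141-3p: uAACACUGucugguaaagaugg
miR-200c-3p: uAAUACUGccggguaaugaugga
miR-302b-3p: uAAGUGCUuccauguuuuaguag
miR-302d-3p: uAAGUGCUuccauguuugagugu
miR-290a-3p: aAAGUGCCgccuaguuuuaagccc
miR-295-3p: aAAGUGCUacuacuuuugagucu
miR-203-3p: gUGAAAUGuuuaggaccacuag

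miR-302b-3p, miR-302d-3p and miR-295-3p share the seed AAGUGCU, whereas the seed of miR-290a-3p is AAGUGCC. The seeds of miR-141-3p (AACACUG) and miR-200c-3p (AAUACUG) are also alike but not the same. Coverage of these hairpins is given with the other microRNAs further on.

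The day 10 list held 43542 peaks over 22.6 Mb (median width 434 bp), against 40159 peaks over 18.3 Mb at day 8 (377 bp). The day 10 list was the deeper: its background pileup, the 1st percentile of the local background recovered from the deposited values, was 0.968, against 0.682 at day 8. Across all 8 lists that value ran between 0.248 at day 12 and 3.08 at day 2. Coverage at the other stages below was not scaled for these depths, and their part in it was not tested.

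Regions kept were the largest class. Of the 55708 regions, 27224 (48.9%) were covered at both days, 16108 (28.9%) were gained, that is covered at day 10 alone, and 12376 (22.2%) were lost, that is covered at day 8 alone. Of the regions of day 10, 62.8% (exact Clopper-Pearson 95% interval 62.4 to 63.3) were also covered at day 8, and of the regions of day 8, 68.7% (68.3 to 69.2) were also covered at day 10. The length shared was 44.1% of the length in either list. Between neighbouring lists, the kept share of the union was 48.9% for day 10 after day 8, against 25.0% for day 8 after day 6 and 28.4% for day 12 after day 10.

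Most of what differed was narrow and weakly scored. The median width was 300 bp for gained regions, 255 bp for lost regions and 646 bp for kept regions. The median score, the authors' −log10 q-value at the strongest peak of the region, was 4.59 for gained regions and 3.66 for lost regions, whereas kept regions had 14.1 at day 10 and 10.7 at day 8. Each list was cut into 10 equal bins by score. In the lowest bin of day 10, 13.5% (12.5 to 14.6) of peaks were overlapped at day 8. In the highest bin it was 99.7% (99.5 to 99.9). The day 8 list ran likewise, with 23.2% (21.9 to 24.5) in its lowest bin and 99.8% (99.6 to 99.9) in its highest. At a score of at least 10 there were 1647 gained and 457 lost regions, and at a score of at least 20 there were 119 gained and 23 lost.

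**Figure D1:**
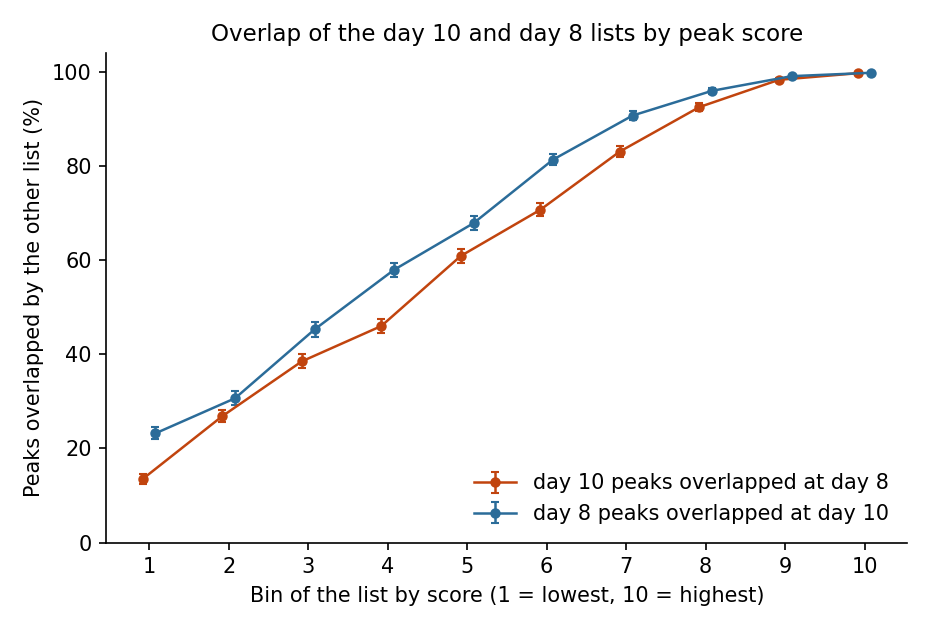
Share of peaks overlapped by at least 1 bp in the other list (%), by bin of each list ranked on its own score (1 to 10). Points are shares and bars exact 95% intervals (counting error only). The share climbs with score in both lists, to 99.7% of day 10 peaks and 99.8% of day 8 peaks in the highest bin.

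Few regions missed the 1 bp rule narrowly. A day 8 peak lay within 1 kb of 1508 gained regions (9.36%), and a day 10 peak within 1 kb of 1282 lost regions (10.4%). Within 100 bp there were 219 gained and 241 lost regions. Just inside the rule, 50 of the 27434 overlapped day 10 peaks shared at most 10 bp with day 8, and 588 shared at most 100 bp. The median shared length was 392 bp.

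The surplus of gained over lost regions shrank at equal list length and turned into a deficit with scaling. With the highest-scored 40159 peaks of day 10, the same number as at day 8, 13207 regions were gained, 12829 lost and 26772 kept. With day 10 scaled to the background pileup of day 8 (factor 0.705, keeping peaks that still reached the weakest −log10 p at day 8, 3.47), 12458 were gained, 12893 lost and 26707 kept, so that lost regions outnumbered gained ones. Of the 16108 gained regions, 77.3% kept a day 10 peak after scaling, and of the kept regions 98.1% did. Counts of gained regions below are therefore given with their scaled values where a direction is drawn from them.

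Gained and lost regions alike lay mostly away from gene ends. Within 1 kb of an end, start or stop side, of a protein-coding gene lay 9.14% (8.70 to 9.60) of gained, 8.60% (8.11 to 9.11) of lost and 38.5% (37.9 to 39.1) of kept regions. Gene bodies held 48.4% (47.6 to 49.1) of gained, 43.3% (42.4 to 44.2) of lost and 30.7% (30.2 to 31.3) of kept regions. Between genes lay 42.5% (41.7 to 43.3) of gained and 48.1% (47.2 to 49.0) of lost regions, so the gained regions were placed more often in genes and the lost ones more often outside. The same order stood at equal list length (48.6% of gained and 43.2% of lost regions in gene bodies) and with day 10 scaled (48.9% and 43.2%). Read the other way, 80.5% of the 13020 gene-end regions were kept, against 38.9% of 21510 gene-body regions and 39.6% of 21178 regions between genes.

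**Figure D2:**
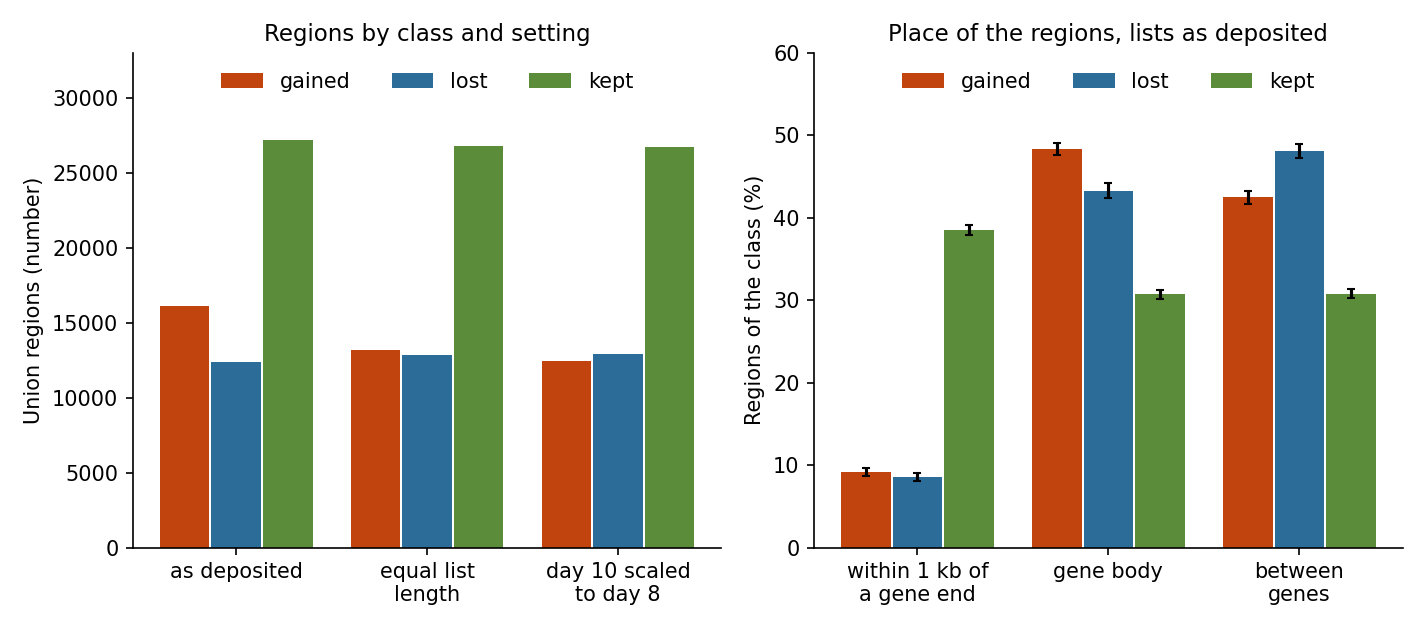
Left, number of regions gained, lost and kept with the lists as deposited, at equal list length and with day 10 scaled to the background of day 8. Right, share of each class by place (%) with exact 95% intervals. Gained regions outnumber lost ones as deposited (16108 and 12376) but not after scaling (12458 and 12893), and 38.5% of kept regions lie at gene ends against 9.14% of gained ones.

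The gained share of changed regions varied little between chromosomes. It was lowest on the autosomes at chromosome 5 (54.0%, 51.6 to 56.4) and highest at chromosome 14 (61.0%, 58.1 to 63.7), around 56.5% in all. The X chromosome had 334 gained and 240 lost regions, and the Y chromosome 6 gained and 10 lost.

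Gained and lost regions differed in the other lists that held them. Lost regions were the more often covered at the early days: day 2 covered 26.6% (25.9 to 27.2) of gained and 35.9% (35.1 to 36.7) of lost regions, and day 6 covered 17.3% (16.7 to 17.9) of gained and 26.6% (25.8 to 27.4) of lost regions. At day 12 the order was the opposite, with 13.4% (12.9 to 13.9) of gained and 5.56% (5.16 to 5.98) of lost regions. The iPSC list, from established induced pluripotent stem cells, covered 20.8% (20.1 to 21.4) of gained and 18.5% (17.8 to 19.2) of lost regions. Kept regions were covered at 53.1% to 67.6% in the 6 other lists.

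With day 10 scaled, the shares at day 2 were 28.5% for gained and 36.5% for lost regions, at day 6 18.8% and 27.0%, and at day 12 16.0% and 5.71%, in the same order as before. Among regions scored at least 10, day 2 covered 26.2% (24.1 to 28.4) of gained and 52.3% (47.6 to 57.0) of lost regions. In the same regions day 12 covered 31.7% (29.4 to 34.0) of gained and 14.9% (11.7 to 18.5) of lost ones. At that score the intervals for iPSC overlapped, at 26.8% (24.7 to 29.1) of gained and 29.5% (25.4 to 34.0) of lost regions.

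**Figure D3:**
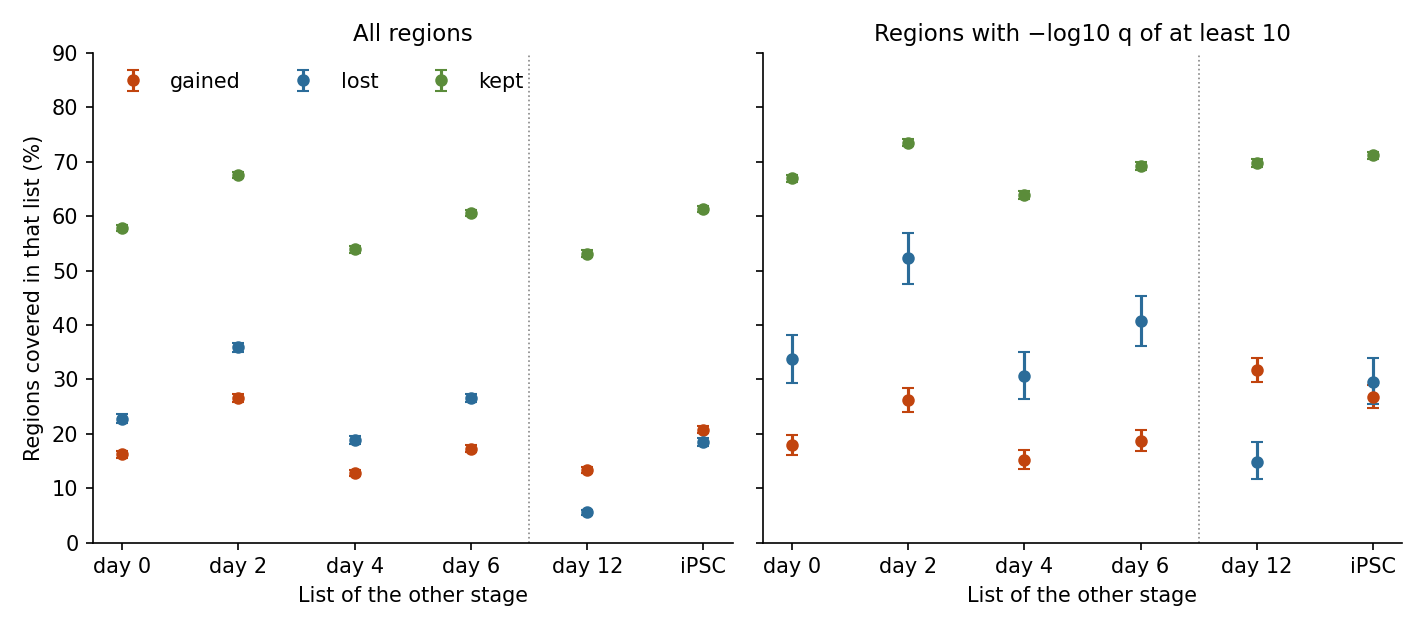
Share of gained, lost and kept regions covered in each of the 6 other lists (%), for all regions (left) and those scored at least 10 (right). Points are shares, bars exact 95% intervals, and the dotted line separates lists earlier than day 8 from those later than day 10. Lost regions sit above gained ones at days 0 to 6 and below them at day 12.

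Over all regions, similar shares of gained and lost ones were in no other list, 51.1% (50.3 to 51.8) and 49.6% (48.7 to 50.5). Among regions scored at least 10 the shares lay apart, at 37.89% (35.54 to 40.28) of gained and 24.73% (20.84 to 28.95) of lost regions. Covered at earlier days only were 18.7% of gained and 28.4% of lost regions, and covered later only, at day 12 or in iPSC, were 17.1% of gained and 8.99% of lost regions. Among gained regions that survived scaling 2410 of 12458 were covered earlier only and 2370 later only. Of kept regions 59.0% were covered both earlier and later, and 14.1% in no other list. Gene-end regions had a longer record than the rest: 27.4% of gained and 25.7% of lost gene-end regions were in no other list, against 53.8% of gained and 51.8% of lost regions between genes.

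Of the 5 highest-scored gained regions, 4 were absent from the lists of days 0 to 6. In Camta1, which encodes a calmodulin-binding transcription activator, a region of 226 bp inside the gene (chr4:151460169-151460394) scored 49.5 at day 10, with a summit pileup of 46 over a local background of 1.33. A gene-body region of Plekha5 (chr6:140578823-140579025) scored 47.9, and a region between genes (chr3:6094299-6094708) scored 38.6. All 3 were covered at day 12, and the last also in iPSC. The other 2 of the 5, at the end of Ccdc68 (37.8) and inside Pstpip2 (37.6), were covered at day 12 as well, and Ccdc68 also at day 2 and in iPSC.

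The highest-scored lost regions were of mixed kind. The first (chr2:98665037-98665211) scored 143 at day 8 with a fold enrichment of only 2.83, over a local background of 300 reads, and lay close to the kept region with the highest score of all (chr2:98666570-98667313, 6361 at day 10 and 6199 at day 8). The second (chr16:78061977-78062179) scored 105 and the third (chr5:72220449-72220646, 52260 bp from Commd8) scored 69.1, and neither was in any other list. The fourth, 8322 bp from Cript (37.8), was also covered at days 2, 4 and 6. The fifth lay at the end of Dhx36, which encodes a helicase of G-quadruplexes, at chr3:62506556-62507297 (36.1), and was covered in all 6 of the other lists. The other 4 of the 5 highest-scored kept regions scored between 682 and 2795 at day 10 and between 585 and 2444 at day 8, and were likewise in all 8 lists.

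At the level of genes, coverage of the ends changed little. An end of 921 of 21887 protein-coding genes (4.21%) was covered at day 10 alone, an end of 642 (2.93%) at day 8 alone, and an end of 11434 (52.2%) in both lists. With day 10 scaled the counts alone were 793 and 718, and at equal list length 801 and 724. Most of these ends were not seen for the first time: 74.5% of the 921 and 76.6% of the 642 were covered in at least 1 of the lists of days 0 to 6. No other list covered 14.7% of the ends found at day 10 alone and 15.4% of those found at day 8 alone. The iPSC list covered 62.6% of the ends found at day 10 alone and 60.9% of those found at day 8 alone.

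Of the 921 ends, 859 held a region that day 8 lacked altogether, while 62 lay at the edge of a kept region whose day 8 peak stopped short of the 1 kb window. Of the 642 ends, 612 held a region that day 10 lacked, and 30 lay at such an edge. The edges of kept regions gave most of the highest scores. Of the 10 highest-scored ends at day 10 alone, 8 took their score from such an edge and 7 of these held no gained region, led by Mrpl18 (mitochondrial ribosomal protein, 59.4), 9430038I01Rik (51.7) and Rpl22 (ribosomal protein, 51.6), with Ibtk (44.6), Zfp41 (42.2), Errfi1 (40.6) and Mknk1 (36.3). The other, Gm30990 (37.0 at the edge), also held a gained region. At day 8 alone 8 of the 10 likewise took their score from an edge, and the 7 that held no lost region were Tiam1 (48.4), Dnajc1 (31.9), Adamts1 (28.4), Rab21 (27.6), Oscar (24.2), Lratd2 (22.0) and Efna5 (20.6). The other, Arhgef1 (25.0 at the edge), also held a lost region.

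Ranked by the score of the gained region itself, the ends at day 10 alone were led by Csrp1 (34.1), Abca2 (30.0), Gpatch4 (24.2), Ephx3 (an epoxide hydrolase, 22.9) and Nckap1l (22.8). Csrp1 encodes a LIM protein of the actin cytoskeleton, and its end was covered otherwise in iPSC only. Abca2, a lipid transporter of the ABC family, was covered otherwise at day 12 only. The end of Nckap1l, a haematopoietic member of the complex that drives branched actin, was covered in each of the 6 other lists. Ranked by the score of the lost region, the ends at day 8 alone were led by Dhx36 (36.1), Hydin (a protein of motile cilia, 25.8), Amer3 (18.2), Lamp2 (a lysosomal membrane protein, 17.3) and Stum (16.6). The ends of Dhx36 and Hydin were covered at each of days 0 to 6. The end of Lhx2, a LIM homeobox factor (15.8), was found at day 8 and in no other list.

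Changed regions were then assigned to the nearest protein-coding gene within 100 kb. Of 25283 assigned regions 14412 were gained (57%), so that 5234 genes (23.9%) had more gained than lost regions and 3545 (16.2%) more lost than gained. With day 10 scaled, 49.9% of assigned changed regions were gained, and at equal list length 51.2%. These shares are the background for the gene lists that follow, and the members of a list share genes, so their intervals cover counting error only.

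Genes of the extraembryonic endoderm had more gained than lost regions. The 15 genes held 45 gained and 19 lost regions (70.3% gained, 57.6 to 81.1), or 38 and 20 with day 10 scaled, and 11 of the 15 had more gained than lost. Gata4, a zinc finger factor that drives the endoderm state, had 5 gained (3 with day 10 scaled) and 1 lost region. The strongest, between genes (chr14:63297205-63297730), scored 26.0 at day 10 and was covered otherwise at day 12 only. The end of Gata4 was covered at day 10 alone, in no other list, but with a score of 2.60 that did not survive scaling.

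Foxa2, a forkhead pioneer factor of endoderm, had 6 gained (5 with day 10 scaled), 2 lost and 10 kept regions. Its end scored 31.1 at day 10 and 20.7 at day 8. Its strongest gained region (chr2:148061487-148061809) scored 15.8 and was in no other list. The end of Lamb1, a laminin chain of the basement membrane, was covered at day 10 (10.1) and not at day 8. That call stood after scaling, and the end had been covered at days 0 and 2. Sox17 had 4 gained and 1 lost region, with its end scoring 9.75 at day 10 and 7.93 at day 8. The ends of Pdgfra (3.645 at day 10 and 6.80 at day 8) and Sox7 (15.0 and 19.5) scored lower at day 10. All other ends of the list covered at both days scored higher, and the part of depth in these scores was not tested. Of the 15 genes, 2 had more lost than gained regions. Gata6 had 1 gained and 3 lost regions, while its end scored 32.6 at day 10 and 17.8 at day 8. Col4a1, a collagen IV chain of the basement membrane, had 1 gained region, or 0 after scaling, and 5 lost ones, and neither list covered its ends.

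Retinoid genes held 28 gained and 10 lost regions (73.7% gained, 56.9 to 86.6), or 24 and 10 with day 10 scaled. An end of 4 of the 11 genes was covered at day 10 alone and of 1 at day 8 alone, before and after scaling. The 4 were Aldh1a2 (10.1), whose promoter is printed above, Crabp2 (9.29) and Crabp1 (3.85), which bind retinoic acid in the cytoplasm, and Rxra (6.68), the partner receptor. All 4 ends were covered in iPSC, and each had been covered at 1 or more of days 0 to 6. Rarb, a retinoic acid receptor, had 7 gained and 1 lost region, all inside the gene. Its strongest gained regions scored 18.5 (chr14:16554169-16554589, also at days 0, 2, 4 and 6) and 15.4 (chr14:16776564-16776870, in no other list). Rarg, another of the receptors, had its end covered at day 8 alone (2.85). Another promoter window of Rarg (chr15:102246451-102246750) was covered in all 8 lists.

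Among the lists of signalling pathways, the Hippo list alone had an interval wholly above the 57% of all protein-coding genes with the lists as deposited, while those of the LIF, TGF-beta, FGF and WNT lists held that share. The Hippo list, of the YAP and TEAD factors and their regulators and targets, held 24 gained and 5 lost regions (82.8%, 64.2 to 94.2; 21 and 5 with day 10 scaled), and 7 of its 10 genes had more gained than lost and 0 the reverse. Tead1, a DNA-binding partner of YAP, held 11 of the 24, or 8 of the 21 with day 10 scaled. The end of Tead2 was covered at day 10 alone (8.34), with no gained region of its own.

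Genes of LIF and STAT3 signalling, which sustains mouse pluripotent cells, held 20 gained and 6 lost regions (76.9%, 56.4 to 91.0; 17 and 9 with day 10 scaled). Lifr, the LIF receptor, held 11 of the 20 (10 of the 17 with day 10 scaled) and 2 of the 6. Its end scored 15.6 at day 10 and 9.73 at day 8 and was covered at none of days 0 to 6. Of its 11 gained regions, the highest scored 13.2 (chr15:7145171-7145408, inside the gene) and 11.8 (chr15:7066391-7066990, between genes). The TGF-beta list held 20 gained and 9 lost regions (69.0%, 49.2 to 84.7), or 17 and 10 with day 10 scaled, with the end of Tgfb1 covered at day 10 alone (5.47) after coverage at each of days 0 to 6. FGF and ERK feedback genes held 14 gained and 12 lost regions (53.8%, 33.4 to 73.4), or 10 and 14 with day 10 scaled, and the end of Fgfr3 was covered at day 8 alone (4.49). WNT response genes held 19 of each (50%, 33.4 to 66.6), or 17 and 19 with day 10 scaled. Among them Tcf7l1, a repressor of pluripotency genes, had 6 gained (4 after scaling) and 1 lost. Axin2, a feedback inhibitor of WNT, had 1 gained and 4 lost.

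Pluripotency genes changed by single sites. The core list of 12 genes held 17 gained and 5 lost regions (77.3%, 54.6 to 92.2), or 13 and 5 with day 10 scaled, and ends of 6 genes were covered at day 10 and of 5 at day 8. The 1 difference was Utf1 (9.97 at day 10), whose end had been covered at days 2, 4 and 6. Pou5f1, which encodes OCT4, gained a region outside the gene (chr17:35502562-35503041) that scored 13.0, stood after scaling and was covered at day 12 and in iPSC but at none of days 0 to 6. Since the OG2 transgene carries Pou5f1 sequence, reads of the transgene and of the native locus cannot be told apart there. Sox2 gained a region at chr3:34721022-34721224 (11.9, in no other list) and lost 3 regions scoring at most 2.95. Nanog had 1 gained and 1 lost region, both weak (2.78 and 2.21), and neither list covered its ends, which iPSC covered.

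The naive list of 12 genes held 24 gained and 13 lost regions (64.9%, 47.5 to 79.8), or 17 and 13 with day 10 scaled. Nr5a2, an orphan nuclear receptor, had its end covered in both lists, scoring 24.1 at day 10 and 8.27 at day 8, and at none of days 0 to 6. The end of Zfp42 scored 8.43 at day 10 and 5.80 at day 8, and the gene gained a region at chr8:43308311-43308515 (13.2, in no other list). Lower scores at day 10 were found at the ends of Gbx2 (12.3 at day 10 and 21.9 at day 8) and Klf4 (13.7 and 17.6). All other ends of the list covered at both days scored higher, and the part of depth in these scores was not tested. Prdm14, a germline and naive factor, had its end at day 10 alone (2.41), a call that did not stand after scaling. Esrrb, an orphan receptor of naive cells, had 2 gained and 2 lost regions and no covered end in any of the 8 lists. A promoter window of Esrrb was nevertheless covered at both days, before and after scaling, and another at neither.

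Epithelial genes were mostly open at both days. Of the 18 junction and keratin genes, ends of 15 were covered at day 10 and of 15 at day 8, with 22 gained and 13 lost regions (62.9%, 44.9 to 78.5), or 15 and 15 with day 10 scaled. The ends that differed were Cldn6 at day 10 alone (5.41) and Krt7 at day 8 alone (4.32), and neither end was in any other list. The end of Cdh1, the E-cadherin gene, scored 27.5 at day 10 and 17.3 at day 8, and the end of Epcam, an epithelial adhesion molecule, 24.7 at day 10 and 11.4 at day 8. Median scores of kept regions were also higher at day 10, and the part of depth in these scores was not tested. Ends of the list that scored lower at day 10 were those of Cldn3 (15.2 at day 10 and 24.8 at day 8) and Cldn4 (11.9 and 17.4). Those of Cldn7 (7.33 and 13.4), Krt19 (12.9 and 20.2) and Krt8 (13.3 and 14.7) were lower too. The remaining ends covered in both lists scored higher at day 10. Regulators of the epithelial state held 18 gained and 13 lost regions, or 16 and 15 with day 10 scaled, with ends of 9 of 12 genes covered at both days, among them Grhl2, a grainyhead factor (20.4 at day 10 and 19.1 at day 8).

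Fibroblast genes showed no excess of lost regions. Of the 18 fibroblast and matrix genes, ends of 12 were covered at day 10 and of 10 at day 8, and the genes held 21 gained and 15 lost regions, or 19 and 17 with day 10 scaled. The 2 ends at day 10 alone were those of S100a4 (17.3), a calcium-binding protein of fibroblasts, and Dcn (3.90), the matrix proteoglycan decorin. Both had been covered at each of days 0 to 6 and were covered neither at day 12 nor in iPSC. Col1a1, the main chain of type I collagen, kept its end (21.5 at day 10 and 21.2 at day 8), with 0 gained and 0 lost regions. Lower scores at day 10 were found at the ends of Postn (4.142 at day 10 and 10.58 at day 8) and Fn1 (7.935 and 12.14). Those of Col1a2 (3.732 and 6.566), Col5a2 (5.931 and 7.868) and Col5a1 (11.99 and 12.46) were lower too. All other ends of the list covered at both days scored higher, and the part of depth in these scores was not tested.

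Mesenchymal transcription factors were the largest list in which lost regions outnumbered gained ones, with 27 gained and 30 lost (47.4% gained, 34.0 to 61.0), or 21 and 31 with day 10 scaled. Runx1 had 7 gained (6 with day 10 scaled) and 7 lost regions, and Tcf4 9 gained and 7 lost. Prrx1 had 2 gained (1 after scaling), 0 lost and 0 kept. Prrx2, Snai1 and Zeb1, factors of mesenchymal cells of which Snai1 and Zeb1 repress the E-cadherin gene, each had 0 gained and 2 lost regions, and Zeb2 had 1 gained and 2 lost. The ends of Snai1 (29.4 at day 10 and 32.4 at day 8) and Zeb1 (12.7 at day 10 and 7.81 at day 8) were covered in both lists. The end of Osr1, a kidney and connective tissue factor, was covered at day 8 alone (2.36). The AP-1 genes, of the Fos and Jun families, had all 10 ends covered in both lists, with 5 gained and 7 lost regions (41.7%, 15.2 to 72.3). They held 4 gained and 9 lost regions (30.8%) with day 10 scaled, and 1 end was at day 8 alone, that of Batf3 (2.37 at day 10 before scaling and 4.68 at day 8). At equal list length the counts were the same. Cell cycle inhibitors and p53 genes held 8 gained and 11 lost regions, of which Cdkn1a, the p21 gene, had 2 gained and 4 lost.

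The remaining lists were small or even. DNA methylation genes held 11 gained and 10 lost regions, and the ends of 2 of the 8 were at day 10 alone: Tdg, the thymine glycosylase that removes oxidised methylcytosine (22.4, covered at each of days 0 to 6), and Dnmt3l, the cofactor of the de novo methyltransferases (7.97). Dnmt3l had 0 gained and 2 lost regions of its own, and a promoter window of the gene was covered at day 8 alone. Germline genes held 8 gained and 2 lost regions, trophoblast genes 12 and 7, formative and neural genes 11 and 8, and genes of the glucocorticoid and cyclic AMP responses 22 and 15. Fgf5, a growth factor of formative cells (5.03), and Sox1, a neural factor (3.65), had ends at day 10 alone. The housekeeping list held 9 gained and 9 lost regions, with an end of Actb, the beta-actin gene, at day 8 alone (5.46), so that a gene active in nearly all cells also fell among the differences. The lost region at that end lay 655 bp outside the gene, and Actb also had 3 kept regions.

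**Figure D4:**
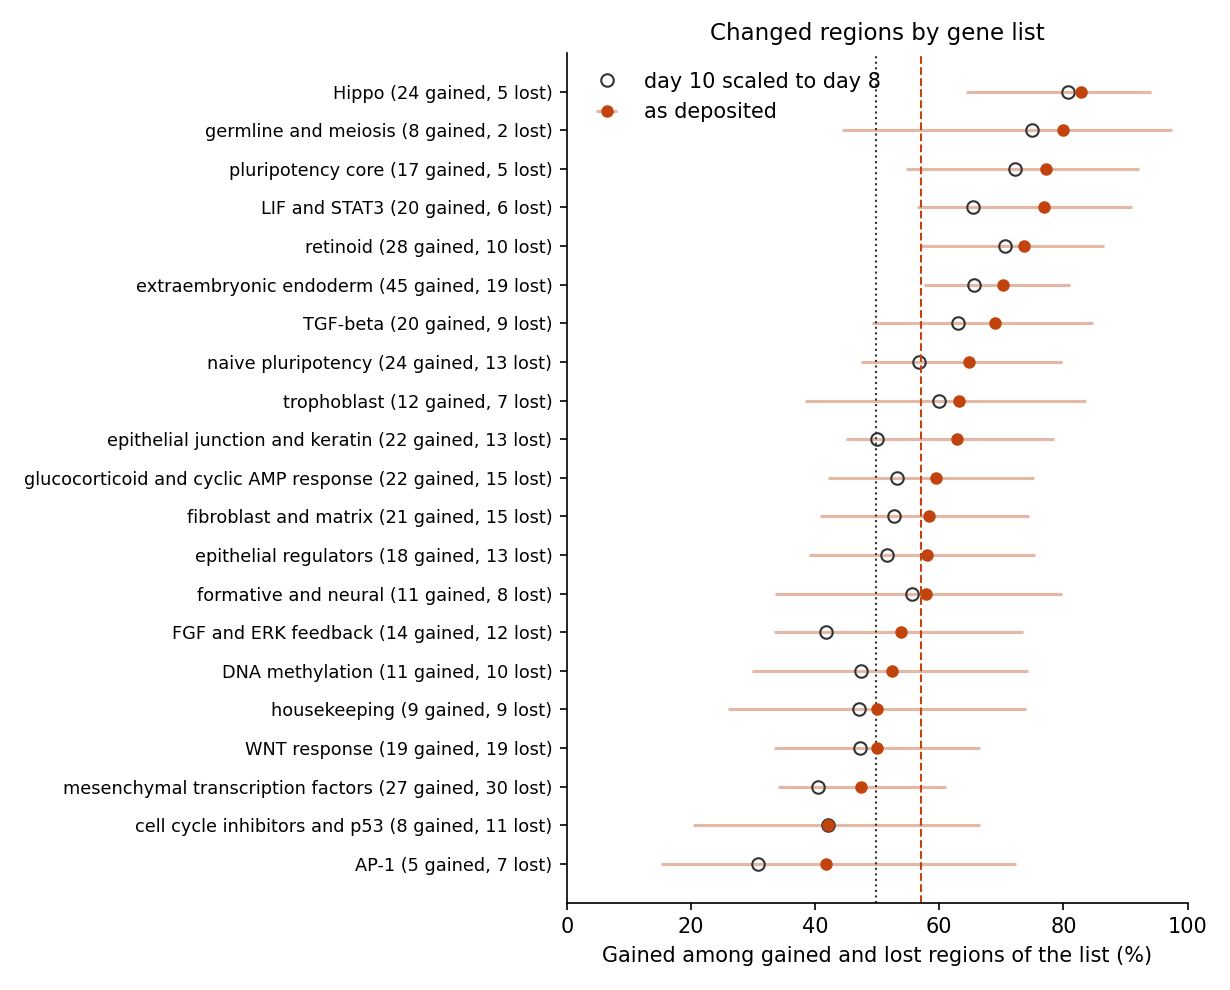
Gained regions as a share of gained and lost regions (%) for each of 21 gene lists, with the lists as deposited (filled points, bars exact 95% intervals) and with day 10 scaled to the background of day 8 (open points). The dashed line is the share over all protein-coding genes as deposited (57%) and the dotted line that share after scaling (49.9%). The Hippo list is highest at 82.8% and the AP-1 list lowest at 41.7%.

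The 10 genes with the largest excess of gained regions were between 50.5 kb (Basp1) and 597 kb (Foxp1) long. Rad51b, a recombination gene of 551 kb, had 25 gained (20 with day 10 scaled), 12 lost and 22 kept regions. Slc38a4, an amino acid transporter gene expressed in placenta and liver, had 11 gained and 1 lost. Snd1, a staphylococcal nuclease domain gene, had 12 gained and 2 lost. Abcc4, a transporter gene, had 10 gained and 1 lost, and its end was covered at day 10 and in no other list (4.59). Ank3 (14 and 4), Foxp1 (14 and 4), Fhl2 (10 and 1), Basp1 (11 and 2) and Nedd4l (11 and 2) made up the rest of the 10 with Lifr. With day 10 scaled, the gained counts were 11 for Ank3, Foxp1, Basp1 and Nedd4l. They were 10 for Slc38a4, Snd1 and Lifr, and 9 for Abcc4 and Fhl2.

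The largest excess of lost regions was in Tns1, which encodes the focal adhesion protein tensin, with 3 gained and 12 lost. Elmo1, an engulfment and motility gene, had 0 gained and 7 lost, and its end scored 3.25 at day 10 and 11.2 at day 8. Kirrel3, an adhesion gene, had 1 gained and 8 lost, with its end at 3.25 at day 10 and 10.5 at day 8. Creb5 had 2 gained and 9 lost, and Sox5, an SRY-box factor, 7 gained and 14 lost. Celf4 (1 and 8), Hivep3 (0 and 6), Cpne4 (0 and 5) and Cuedc1 (0 and 5) were also among the 10.

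Promoters covered in 1 list only stood between those covered in both and those covered in neither. Of 21263 promoters of 17492 genes in the RefSeq table, 809 (3.8%) were covered at day 10 alone, 506 (2.38%) at day 8 alone and 10137 (47.7%) in both. The median number of CG pairs was 14 at day 10 alone, 15 at day 8 alone, 23 in both and 4 in neither. The median G+C content followed the same order, at 58.3%, 59.7%, 62.3% and 48.7%. The 6 windows printed above spanned this range, from Aldh1a2 (50 pairs, day 10 alone) to Nanog (4 pairs, neither).

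**Figure D5:**
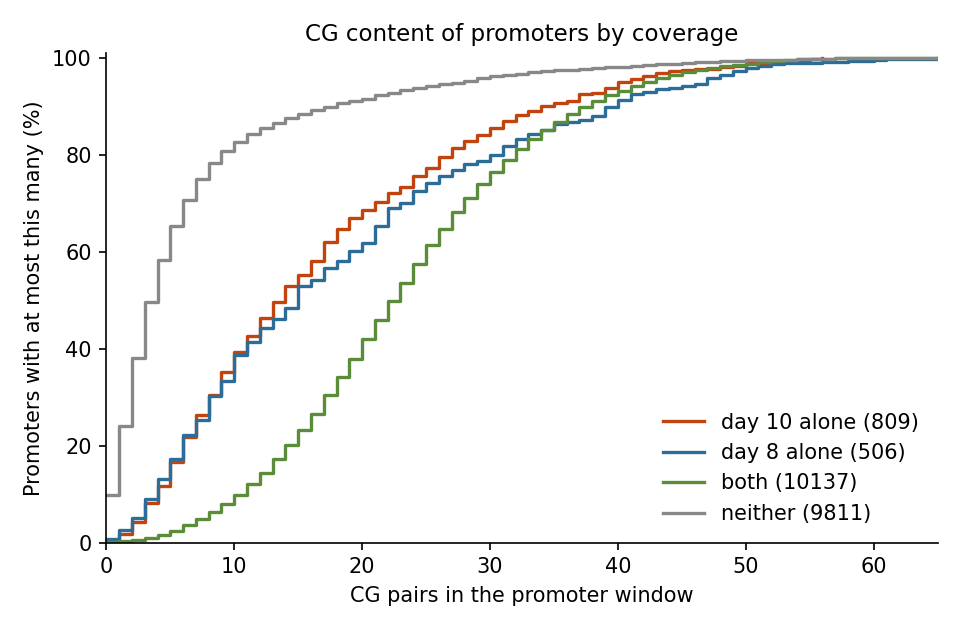
Cumulative share of promoters (%) by the number of CG pairs in the window, for promoters covered at day 10 alone, at day 8 alone, in both lists and in neither, with the number of promoters in the legend. The curves for day 10 alone and day 8 alone run close together, with medians of 14 and 15, between those for neither (4) and both (23).

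The windows were searched on both strands for 14 short strings known as factor motifs, none of which holds another. The ETS string CCGGAAG was in 6.43% (4.84 to 8.34) of promoters at day 10 alone, 8.89% (6.56 to 11.7) at day 8 alone, 20.4% (19.7 to 21.2) in both and 2.97% in neither, against 11.6% of all. The GATA string AGATAA was in 8.78% (6.92 to 10.9) of promoters at day 10 alone, 4.94% (3.22 to 7.21) at day 8 alone, 5.19% in both and 14.6% in neither, against 9.65% of all. The AP-1 string TGANTCA was in 5.19% (3.77 to 6.95) at day 10 alone and 8.10% (5.88 to 10.8) at day 8 alone, against 6.99% of all. The TEAD string GGAATG was in 14.1% (11.8 to 16.7) at day 10 alone and 13.0% (10.2 to 16.3) at day 8 alone, against 13.6% of all. NFY was searched as CCAATC and the cyclic AMP response element as TGACGTCA. The TATA box was searched as TATAAA, and an E-box bound by muscle and neural factors as CAGCTG. For grainyhead factors the string was AACCNGTT, for POU factors ATGCAAAT, for ESRRB CAAGGTCA and for forkhead factors TGTTTAC. The motifs of NRF1 and YY1 completed the 14. Between day 10 alone and day 8 alone the intervals overlapped for all 14 strings. A match describes the letters of the window only, not a bound site.

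Of 1005 microRNA hairpins, 33 (3.28%) were covered within 1 kb at day 10 alone, 20 (1.99%) at day 8 alone and 132 (13.1%) in both. With day 10 scaled, 26 were at day 10 alone and 21 at day 8 alone. Mir141 and Mir200c, which share 1 peak, were covered at day 10 (7.20), stood after scaling and were otherwise covered in iPSC only. The 5 hairpins of the Mir302 and Mir367 cluster shared a peak that scored 21.5 at day 10 and 7.77 at day 8 and that was covered at day 12 and in iPSC, but at none of days 0 to 6. Mir290a scored 19.5 at day 10 and 7.75 at day 8 and was covered otherwise at day 2 only. Mir295, with the same seed as the miR-302 members printed above, was covered at day 8 (5.03), at day 2 and in iPSC, but not at day 10. Mir203 was covered at day 8 (8.59) and otherwise at day 2 only.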

How the data were processed

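ATAC-seq libraries of 2 samples at day 10 and 2 at day 8 were compared through 1 deposited peak list per stage in narrowPeak form. Per the submitters' processing notes the tools included MACS2 2.1.2, Bowtie2 2.2.5, fastp 0.20.1, deepTools 3.4.3 and SAMtools, and the build was mm10. Whether reads were shifted for Tn5, filtered against problem regions or pooled was not given in the sources used here. Each deposited peak holds the authors' score, a fold enrichment (ratio) at the summit, −log10 p-value and −log10 q-value, and the summit offset. The highest deposited q-value was 0.0499 at day 10 and 0.0487 at day 8.

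From these, peaks on chromosomes 1 to 19, X and Y were merged at 1 bp or more (Python 3.11.15, NumPy 2.4.6, pandas 2.3.3, SciPy 1.17.1). Pileup and local background were recovered from fold and p, within 0.001 of the deposited −log10 p for at least 99.9% of peaks in either list. This step was tested on simulated data. The depth in reads is not known from the lists. Genes are the 21887 protein-coding genes of RefSeq GRCm38.p6, the assembly known as mm10. Its gene table gives no strand, so either gene end counted. Start sites of genes with a promoter in the table were an alternative added later. All 241 list genes matched by symbol, and 172 had a promoter. With 1 list a stage there is no replicate check, and exact Clopper-Pearson 95% intervals cover counting error only.

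Genes were named by membership of a set of regulators, by the difference of gained and lost regions within lists and over all genes, and by the score of ends and regions found at 1 day alone. Members, lists and rules were chosen with earlier results of these data known. Genes named beyond these, among them single list members and the ends ranked by gained and lost regions alone, were chosen after their values were seen. Values of some genes that these rules name are not reported here.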

Additional observations from a re-analysis of the deposited data

How the results depend on the processing

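No paired analysis was possible because each stage had 1 list and the result comes from no test. Requiring a −log10 q-value of at least 5 on either list before comparing left 10063 gained and 4432 lost regions, with gene-end shares of 11.3% of gained, 12.5% of lost and 45.0% of kept regions, and iPSC covered 28.3% of gained and 30.2% of lost ones. Counting a region as kept only with 50% of it covered gave gene-end shares of 11.7%, 9.66% and 40.9% of gained, lost and kept regions, and iPSC shares of 25.4% of gained and 20.5% of lost ones. With day 10 scaled to the background of day 8, iPSC covered 22.5% of gained regions, and at equal list length 21.8% of gained and 19.2% of lost ones. A gene-end window of 2.5 kb gave 14.8%, 14.4% and 43.6% of gained, lost and kept regions, and start sites in place of either end, chosen after seeing the data, 6.10%, 5.93% and 33.2%, with 592 genes at day 10 alone and 427 at day 8 alone. Joining peaks up to 200 bp apart left 8.01% of lost regions at gene ends. At the strict q-value lost regions were thus covered in iPSC more often than gained ones, and held the larger gene-end share, with overlapping intervals in both comparisons, unlike with the lists as deposited. The cause was not tested. The other 37 recomputed values moved by less than their interval, or by less than 1.5 times for counts. An assignment limit of 20 kb left 4945 genes with more gained than lost regions, against 5234.

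The lists carry no counts of reads, and day 10 was the deeper. A region absent from a list was not called as a peak there, which does not by itself show it closed. The part of depth in these absences was not tested.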

Other observations

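Of the 27224 kept regions 3836 were in no other list, and 1600 of these scored at least 10. At Foxa2 the 3 promoter windows of the table stood in 3 classes: 1 was covered at day 10 alone, 1 in both lists and 1 in neither, and the first of them was in no other list. The 3 loci of miR-9, a microRNA of the nervous system, stood in 3 classes, with Mir9-3 covered in both lists (17.4 at day 10 and 13.4 at day 8), Mir9-1 at day 10 alone (2.58, not after scaling) and Mir9-2 at day 8 alone (2.70). Mir29a and Mir29b-1, microRNAs that act on collagen messages, shared a peak scoring 6.15 at day 10 and 3.73 at day 8, covered at each of days 0 to 6 but neither at day 12 nor in iPSC. Mir34c, a target of p53, was covered at day 10 (2.50, not after scaling) and not at day 8.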
